A study of Rattus norvegicus with 10 samples.

Results

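The 10 imprinted genes followed here were Nnat, Dlk1, H19, Peg3, Mest, Meg3, Cdkn1c, Plagl1, Ndn and Grb10. They were chosen from earlier results on these same arrays, with their dehydrated and control values known, so their differences are given as a description with no p-value. Every probe set annotated with exactly 1 gene symbol equal to one of these names was taken, which gave 12 of the 31099 probe sets of the array and 9 of the 10 genes, among 14218 genes with such a probe set. Peg3 had no such probe set and is not analysed here.

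The tissue was pituitary neurointermediate lobe, which joins the neural lobe and the melanotrophs of the intermediate lobe. Donors were male Sprague Dawley rats of 10 to 12 weeks, either dehydrated for 3 days or kept as controls. No strain difference, transgene or drug is given for either group. There were 5 dehydrated and 5 control Affymetrix Rat Genome 230 2.0 arrays, each from a separate pool of 5 animals, so the spread between arrays is one between pools and shows nothing of single rats. Arrays are numbered 1 to 5 within a group in the order of deposition, as names alone. The supraoptic nucleus appears in the design text of the series, whereas the title and every sample label give the lobe. The melanotroph genes Pomc and Tbx19 had signals of 491 to 1090 and 513 to 685, and the pituicyte gene Nkx2-1 of 120 to 223. The anterior lobe hormone genes Gh1 and Prl had signals of 746 to 3336 and 552 to 2866.

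An imprinted gene is expressed mainly from the chromosome inherited from 1 parent, as marked by DNA methylation laid down in the germ line. Nnat, Dlk1, Peg3, Mest, Plagl1 and Ndn are read mainly from the paternal copy, and H19, Meg3 and Cdkn1c from the maternal copy. Grb10 is read from the maternal copy in most tissues and from the paternal copy in neurons. Many of these genes control fetal growth and remain active in endocrine tissue and brain. The arrays measured total transcript and did not separate the parental copies.

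Dlk1 and Meg3 lie at 1 imprinted locus, with 1 annotated gene between them in the RefSeq table of assembly GRCr8, and are read from opposite parental chromosomes. Their start regions are shown because the marks of imprinting are methylated CG pairs, and every CG is in capitals. Whether these regions carry such a mark was not measured. Each runs from 250 bases before to 50 after the annotated start, 5′ to 3′ on the plus strand of GRCr8, at chr6:134192347-134192646 for Dlk1 and chr6:134273806-134274105 for Meg3.
Dlk1: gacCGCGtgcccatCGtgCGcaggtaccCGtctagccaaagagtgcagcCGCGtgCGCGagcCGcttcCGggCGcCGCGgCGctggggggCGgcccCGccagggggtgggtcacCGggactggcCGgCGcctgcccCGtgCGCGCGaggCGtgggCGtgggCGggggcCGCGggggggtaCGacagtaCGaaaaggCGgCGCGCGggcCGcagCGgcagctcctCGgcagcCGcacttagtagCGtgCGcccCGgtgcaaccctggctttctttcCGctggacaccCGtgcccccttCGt
Meg3: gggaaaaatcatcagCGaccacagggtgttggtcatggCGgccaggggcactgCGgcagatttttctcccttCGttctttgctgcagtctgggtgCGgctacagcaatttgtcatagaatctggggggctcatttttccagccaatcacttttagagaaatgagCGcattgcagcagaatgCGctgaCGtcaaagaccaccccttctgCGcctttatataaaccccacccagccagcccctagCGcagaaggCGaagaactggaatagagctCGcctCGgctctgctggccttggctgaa

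Dlk1 held 45 CG pairs in these 300 bases and Meg3 held 13. RefSeq start regions were matched for 7 of the 10 genes. The other counts were 44 for Grb10, 29 for Plagl1, 18 for Mest, 16 for Peg3 and 14 for Ndn. All 7 lay above 7, the median of 33469 start regions of the same length; 1.66% of those held at least as many as Dlk1 and 35.3% at least as many as Meg3. CG reads the same on both strands. Methylation itself was not measured.

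Across the 10 genes, Nnat was 2.01-fold higher in dehydrated lobes, and no other measured gene differed by more than 0.26 on the log2 scale. Signals are linear intensities on a scale on which the trimmed mean of every array is 100. Changes are dehydrated minus control on a scale of log2(signal + 5), with the moderated standard error of a limma fit across all probe sets. Of the 12 probe sets, 11 were among the brightest 60% that entered the fit. The fit called 1 of these 11, Nnat, at a Benjamini-Hochberg adjusted p under 0.05, where it called 2.46% of the 18625 probe sets tested. Nnat was also the 1 probe set whose groups did not overlap, as in 4.59% of all tested. Since the genes were chosen with this comparison known, nothing is read from either count. The median change over the 11 probe sets was -0.10, beside -0.01 over all 18625.

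**Figure D1:**
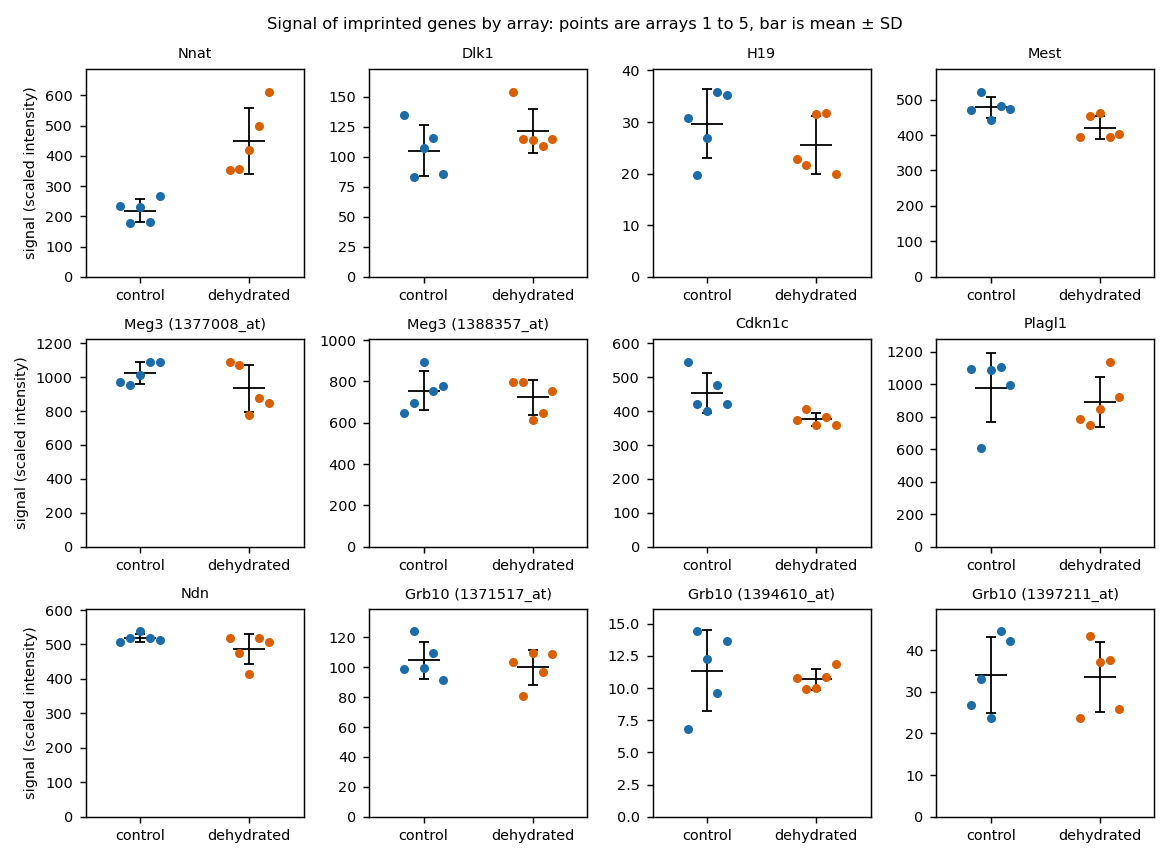
Signal (scaled linear intensity, axis from 0) of the 12 probe sets on each of 5 control (blue) and 5 dehydrated (orange) arrays, with a bar for the mean and SD of each group. For Nnat every dehydrated array lies above every control array (353 to 613 against 178 to 267), while in the other 11 panels the groups overlap.

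Nnat encodes neuronatin, a small proteolipid of the endoplasmic reticulum membrane that binds calcium pumps and the signal peptidase complex and is known from developing brain, pancreatic beta cells and pituitary. Its signals were 353, 356, 421, 501 and 613 on dehydrated arrays 1 to 5. On control arrays 1 to 5 they were 233, 178, 233, 182 and 267. The lowest dehydrated value stood above the highest control value, and the dehydrated arrays were the more spread, with a coefficient of variation of 24.4% against 17.3%. The group means were 449 ± 110 and 219 ± 37.9 (SD, n = 5), a log2 change of 1.01 ± 0.15 (SE) or 2.01-fold. Over 22 alternative settings the log2 change ran from 0.89 without dehydrated 5 to 1.15 with RNA integrity as a covariate. Of all 18625 probe sets, 23, Nnat included, had a change at least as large upward. In pooled tissue, more cells that hold a transcript and more transcript per cell cannot be told apart.

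Dlk1 encodes a membrane protein with epidermal growth factor-like repeats, related to the Notch ligands, that can be shed and restrains differentiation. Its signals were 154, 115, 114, 109 and 115 on dehydrated arrays 1 to 5 and 135, 83.1, 107, 115 and 85.9 on control arrays 1 to 5. Dehydrated 1 stood alone at the top, and the other 4 dehydrated arrays lay inside the control range. The log2 change was 0.21 ± 0.13 (SE), and 0.13 without dehydrated 1. Dlk1 was the only other gene of the list with a change above 0.

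Among the genes that restrain growth, Cdkn1c had the largest decrease. It encodes p57, an inhibitor of cyclin-dependent kinases that holds cells out of division. Its signals were 373, 405, 360, 384 and 360 in the dehydrated group and 546, 420, 401, 477 and 422 in the control group. Of the dehydrated arrays 4 lay below every control, and 1, dehydrated 2, lay just above the lowest control. The log2 change was -0.26 ± 0.09 (SE). With the RNA integrity measure described below as a covariate it was -0.36 ± 0.07 (SE).

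Plagl1 encodes Zac1, a zinc finger transcription factor that can arrest the cell cycle and acts on other imprinted genes. Its signals were 784, 750, 849, 1139 and 922 in the dehydrated group and 1095, 609, 1084, 1104 and 996 in the control group. The groups overlapped widely, with control 2 well below the other controls. The log2 change was -0.12 ± 0.15 (SE), and -0.28 without control 2.

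Ndn encodes necdin, a member of the MAGE family that restrains growth in postmitotic neurons and lies in the Prader-Willi region. Its signals were 518, 476, 416, 518 and 506 in the dehydrated group and 506, 520, 538, 518 and 514 in the control group. The control arrays were the closest together of any of the 12 probe sets, with a coefficient of variation of 2.24%, and dehydrated 2 and 3 lay below all of them. The log2 change was -0.10 ± 0.07 (SE), and -0.04 without dehydrated 3.

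Grb10 encodes an adaptor that binds the insulin and IGF1 receptors and dampens their signal. All 3 of its probe sets had a change below 0, each smaller than its SE. The brightest read 104, 80.6, 110, 96.9 and 109 in the dehydrated and 98.6, 124, 99.5, 110 and 91.7 in the control group, a log2 change of -0.07 ± 0.11 (SE). The groups lay over each other, and its sign turned in 1 of 22 settings. The second, at 23.7 to 43.3 and 23.7 to 44.5, changed by -0.01 ± 0.20 (SE), with the opposite sign in 8 of 21 settings. The third, at 6.80 to 14.4 over both groups, was too dim to enter the fit and stood at -0.04 ± 0.20 (SE) when no filter was applied.

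Mest encodes a protein of the alpha/beta hydrolase fold that marks growing mesoderm and fat tissue. Its signals were 394, 452, 461, 396 and 402 in the dehydrated group and 471, 523, 443, 481 and 473 in the control group. Of the controls 4 lay above every dehydrated array, and control 3 lay among the dehydrated ones. The log2 change was -0.18 ± 0.07 (SE), between -0.22 and -0.15 over the 22 settings.

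The remaining members are long non-coding RNAs. H19, which is abundant in fetal tissue and also carries a microRNA, was dim here: 22.9, 21.6, 31.6, 31.7 and 20 in the dehydrated group and 30.7, 19.7, 26.9, 35.9 and 35.3 in the control group. The groups overlapped widely, and the log2 change was -0.18 ± 0.19 (SE). Meg3, which is read from the maternal copy of the Dlk1 locus, had 2 probe sets. The first read 1092, 1071, 779, 878 and 847 in the dehydrated group and 972, 954, 1011, 1089 and 1089 in the control group. Dehydrated 3, 4 and 5 lay below every control on it, and dehydrated 1 lay above every control. The second read 799, 799, 615, 647 and 754 against 646, 698, 897, 756 and 779, with overlapping groups. The log2 changes were -0.14 ± 0.09 and -0.06 ± 0.10 (SE), and over the 10 arrays the 2 probe sets had a Pearson r of 0.66 in their deviations from the group means. The second changed sign without control 3, at 0.00073.

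**Figure D2:**
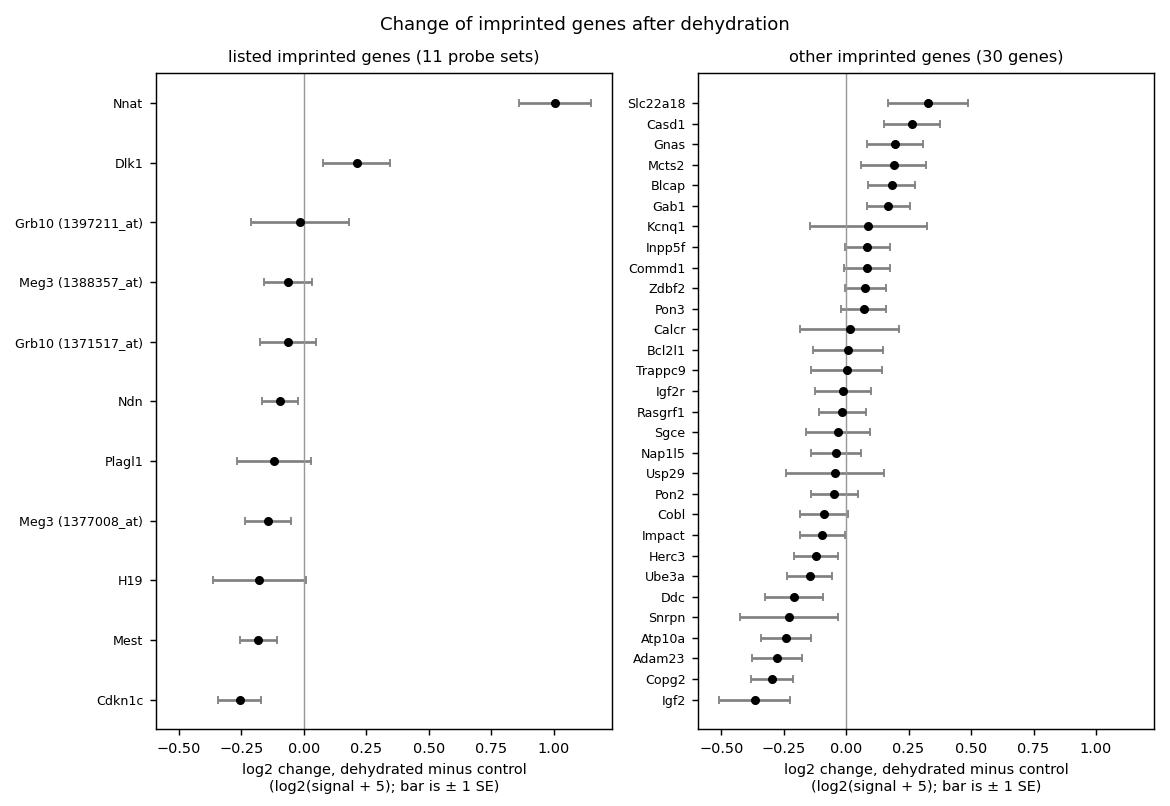
Log2 change (dehydrated minus control, on log2(signal + 5); bar of 1 SE on each side) of the 11 listed imprinted probe sets in the fit (left) and of 30 other imprinted genes (right). Nnat stands at 1.01; every other point in both panels lies between -0.37 and 0.33.

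The pairs of genes differed in how they varied from array to array. Over the deviations of the 10 arrays from their group means, the 55 pairs among the 11 probe sets had Pearson r from -0.75 (Mest with Ndn) to 0.72 (H19 with Plagl1), with a median of -0.08, and 23 pairs were above 0. All probe sets of an array share its RNA pool and scaling. Nnat and Plagl1 had an r of 0.56, and Dlk1 and Cdkn1c of 0.58. Control 2 was the lowest control for H19, Plagl1 and Nnat, and control 1 the highest control for Dlk1 and Cdkn1c. How far these r rest on those arrays was not tested. Over the same deviations, Dlk1 and Cdkn1c had an r of 0.59 and 0.85 with the RNA integrity ratio described below.

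RNA integrity was read from GAPDH and beta-actin, as log2 of the signal of their 3′ probe sets over that of their 5′ probe sets, which increases as RNA is shortened. The ratio was 2.27, 2.67, 2.15, 2.05 and 1.61 on dehydrated arrays 1 to 5 and 2.52, 1.68, 1.51, 1.91 and 1.26 on control arrays 1 to 5. The groups overlapped (exact two-sided permutation p = 0.214, 0.286 adjusted over 8 array measures). Cdkn1c followed it within the groups, with a Pearson r of 0.85 and a Spearman rho of 0.73 over the deviations of 10 arrays, and an r of 0.55 without control 1 and dehydrated 2, the arrays farthest from the median deviation of the ratio. Nnat went against it, with an r of -0.57 and a rho of -0.64, and -0.89 without those 2 arrays. Dehydrated 5 had the lowest ratio of its group and control 1 the highest of its own. Without these 2 arrays the log2 change was 0.91 ± 0.14 (SE) for Nnat and -0.17 for Cdkn1c. With the ratio as a covariate it was 1.15 for Nnat and 0.09 for Dlk1.

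**Figure D3:**
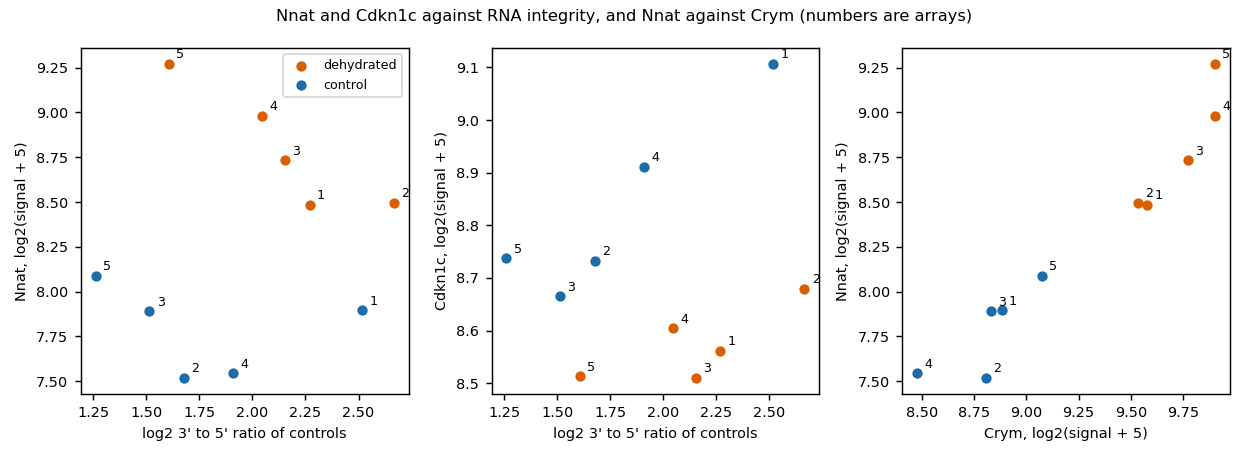
Nnat (left) and Cdkn1c (middle), as log2(signal + 5), against the log2 3′ to 5′ ratio of the control transcripts, and Nnat against Crym (right), for the 5 dehydrated (orange) and 5 control (blue) arrays, numbered within groups. Nnat is higher on each of the 5 dehydrated arrays than on any control. Cdkn1c is highest on control 1, the control with the highest ratio of 2.52.

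Genes whose pattern was most like that of Nnat were taken by Pearson correlation over the 10 arrays, among 10592 other genes. The closest were Crym (r = 0.97), the cytosolic thyroid hormone-binding crystallin; A2m (0.97), the protease inhibitor alpha-2-macroglobulin; Gfap (0.96), a filament protein of glia; Polr2e (0.96), an RNA polymerase subunit; and Chi3l1 (0.95), a chitinase-like secreted protein. Crym read 759, 736, 869, 953 and 952 on dehydrated arrays 1 to 5 and 467, 443, 450, 352 and 534 on control arrays 1 to 5. Crym was chosen by its correlation with Nnat, so a shared order of arrays follows from the choice. As for Nnat, its groups did not overlap, its highest control was control 5, and its lowest dehydrated arrays were 1 and 2. Its lowest control was control 4 and its highest dehydrated array was dehydrated 4, where Nnat had control 2 and dehydrated 5. Over deviations from the group means, which leave out the difference between the groups, r with Nnat was 0.84 for Crym, 0.91 for A2m, 0.81 for Gfap, 0.80 for Polr2e and 0.89 for Chi3l1. By that second measure the 5 closest genes were Odr4 (0.96), Cldn3, Ergic3, Mfsd11 and Arhgef18 (each 0.95). None of these 5 was called, and their changes lay between -0.61 and -0.04 on the log2 scale. Each set of 5 genes holds the highest of 10592 correlations over 10 arrays, so a high r follows in part from the ranking.

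A list of 61 further imprinted genes was made apart from a shorter list of genes imprinted mainly in placenta. The division is not strict, and the first list still held genes imprinted in placenta, Gab1 among them. Of the 61, 42 were on the array with 1 symbol and 30 of these entered the fit, each by its brightest probe set. None was called in either direction (limma, adjusted p under 0.05), against 3.19% of 10593 genes, 2.31% higher and 0.878% lower. The placental list held 3 called genes, so the count of 0 depends on keeping the lists apart. At an unadjusted p under 0.05 there were 5 of 30, beside 18.9% of all genes at that threshold. Of the 30 changes, 14 were above and 16 below 0, with a median of -0.01 beside 0.01 over all genes. Without dehydrated 5 or with array quality weights 1 gene, Copg2, was called, and without dehydrated 5 and control 1 together 2 were, Copg2 and Casd1.

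Direct neighbours of Nnat, Mest, H19 and Grb10 were among them; Magel2, next to Ndn, is not analysed here. Blcap, a gene for a small membrane protein whose RefSeq annotation overlaps that of Nnat, read 341, 343, 343, 259 and 280 in the dehydrated group and 256, 247, 276, 306 and 288 in the control group. The groups overlapped, with a log2 change of 0.18 ± 0.10 (SE, limma adjusted p = 0.343). Its second probe set in the fit changed by -0.07 ± 0.19 (SE). Copg2, a coat protein gene next to Mest, had signals of 323 ± 36.0 and 396 ± 23.3 (SD, n = 5) and a log2 change of -0.30 ± 0.08 (SE, limma adjusted p = 0.0724). Only dehydrated 5 reached into the control range. Igf2, the fetal growth factor gene next to H19, stood at 144 ± 31.0 and 185 ± 25.8 (SD, n = 5) and changed by -0.37 ± 0.14 (SE, limma adjusted p = 0.196). Ddc, the gene of aromatic amino acid decarboxylase next to Grb10, changed by -0.21 ± 0.12 (SE, limma adjusted p = 0.370). Of its dehydrated arrays 4 lay below every control and 1 above every control.

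None of the other named imprinted genes passed the test. Igf2r, the receptor that clears IGF2, changed by -0.01 ± 0.11 (SE), with 0.17 ± 0.10 on its second probe set, and Rasgrf1, a Ras exchange factor, by -0.02 ± 0.09. Impact, a regulator of translation control by GCN2, changed by -0.10 ± 0.09 and Snrpn, of the Prader-Willi region, by -0.23 ± 0.20. Limma adjusted p for these 4 was 0.587 to 0.970. A second, dimmer Impact probe set changed by -0.64 ± 0.30 (SE, limma adjusted p = 0.287), and the mean of the Impact probe sets by -0.37. Gnas, the gene of the stimulatory G protein alpha subunit, changed by 0.20 ± 0.11 (SE, limma adjusted p = 0.385) on its brightest probe set, by 0.01 and -0.31 on its others, by -0.08 after quantile normalization and by -0.04 as the mean of its probe sets. The 12 genes measured but too dim for the fit, among them Dio3, Peg10 and Phlda2, had group means of 1.48 to 18.4.

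Some genes imprinted mainly in placenta were listed apart, since in the pituitary they may be read from both copies. Of 12 in the fit, 2 rose, 1 fell and 9 did not pass (3 of 12, beside 3.19% of all genes); the median change was -0.05. Slc22a3, an organic cation transporter, fell by 0.94 on the log2 scale (SE 0.16, limma adjusted p = 0.00427). Dcn, the collagen-binding proteoglycan decorin, rose by 0.43 (SE 0.08, limma adjusted p = 0.00895), and its adjusted p was 0.0550 without an intensity trend. Dcn is also one of the 14 fibroblast markers described below, whose summed signal, Dcn included, was higher on all 5 dehydrated arrays. Of these 14 markers, 4 changed downward. The part of the fibroblast markers in the change of Dcn was not tested. Earlier results for these 2 were known when the list was made. Tssc4, a splicing-related gene near Cdkn1c, rose by 0.41 on its brightest probe set (SE 0.10, limma adjusted p = 0.0316). Its other probe sets changed by -0.62 and -0.11, and the mean of all gave -0.10. The call was lost when dehydrated 1, 2 or 3 or control 1, 2, 3 or 4 was left out, with limma adjusted p of 0.0505 to 0.0925. It was also lost without a filter, without an intensity trend and with the integrity covariate, and held in 12 of 23 alternatives.

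Among genes that keep or read DNA methylation marks, 0 of 16 were called (limma), with 3 at an unadjusted p under 0.05, where 18.9% of all genes lay, and a median change of -0.03. The one with the smallest p was Arid4a, a chromatin protein gene, at -0.37 ± 0.13 (SE, adjusted p = 0.162).

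Partners and relatives of the members were then counted, and their counts at an unadjusted p under 0.05 stand beside the same 18.9% of all genes. Of 7 proteins that bind neuronatin, the calcium pumps and the subunits of the signal peptidase, 0 were called (limma), 3 had an unadjusted p under 0.05, and the median change was 0.02. Spcs1, a signal peptidase subunit, had the smallest p, with a log2 change of 0.23 ± 0.08 (SE, adjusted p = 0.155); it passed without dehydrated 5 (adjusted p = 0.0264), and its change was 0.03 after quantile normalization. The other 2 subunits at an unadjusted p under 0.05 lay the other way, Spcs3 at -0.17 ± 0.06 and Spcs2 at -0.29 ± 0.13 (SE, limma adjusted p = 0.171 and 0.238). Spcs3 passed after quantile and cyclic loess normalization, and Spcs2 without dehydrated 5 and control 1 together. In the Notch pathway, to which Dlk1 is related, 0 of 12 were called, 1 had an unadjusted p under 0.05 and the median was 0.06. That gene was Hey2, a Notch target, at -0.26 ± 0.09 (SE, limma adjusted p = 0.153).

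Of 11 genes of G1 phase control (relatives of p57, cyclins, their kinases, Rb1 and E2f1), 1 rose and 10 did not pass, with a median of 0.14. Ccnd1, the gene of cyclin D1, stood at 221 ± 33.0 in controls and rose to 306 ± 28.7 (SD, n = 5), by 0.47 ± 0.10 (SE) on the log2 scale (limma adjusted p = 0.0204). Its other probe sets both changed by 0.07, and the mean of the 3 gave 0.20 (limma adjusted p = 0.262). Each of 4 arrays ended the call when left out: dehydrated 1, dehydrated 3, control 4 and control 5, with limma adjusted p of 0.0516 to 0.0770. The call was also lost without an intensity trend. Of 10 insulin and IGF receptor genes and adaptors 0 were called (limma; 3 at an unadjusted p under 0.05), with a median of -0.13. Grb14, the closest relative of Grb10, had a log2 change of -0.51 ± 0.18 (SE, adjusted p = 0.143). Of 6 relatives and targets of Plagl1, Igf2 among them, 0 were called (limma; 3 at an unadjusted p under 0.05), with a median of 0.16. Adcyap1r1, the receptor of the neuropeptide PACAP, changed by 0.36 ± 0.12 (SE, adjusted p = 0.113).

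Markers of the cell types in the dissection also differed between the groups; for each list the calls are those of the limma fit and the median is that of the log2 changes. The summed signal of 15 pituicyte and astroglia markers lay at 11617 to 13367 on dehydrated arrays and 11494 to 11988 on controls. Gfap (2.38), Lhx2 (0.39) and the glutamate transporter gene Slc1a3 (0.36) rose, 12 did not pass, 5 were below 0, among them S100b and Aqp4, and the median was 0.07. The 10 melanotroph markers summed to 9821 to 11057 and 10481 to 11446, with 1, the convertase gene Pcsk2, called lower (-0.88) and a median of -0.05. Of 5 neurosecretory transcripts, which summed to 4283 to 5325 and 2546 to 2899, Avp (1.38) and Oxt (0.83) rose. The other 3, Gal (0.34), Pdyn (0.09) and Cck (-0.13), did not pass. The 14 fibroblast markers (5 called higher, 1 lower) summed to 11169 to 13611 and 8195 to 9031, with a median of 0.19. Much of that sum came from the brightest, Mgp, with a mean of 5104 in dehydrated and 2544 in control arrays. Of the 14 changes, 4 were below 0, among them Islr (-0.49), the marker called lower. The 11 endothelial and pericyte markers (4 higher) summed to 1644 to 2059 and 1119 to 1484, with a median of 0.44. The summed signals of the neurosecretory, fibroblast and endothelial lists did not overlap between the groups.

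The 6 anterior lobe markers (1 called lower) summed to 4824 to 9379 on dehydrated and 2574 to 7950 on control arrays. The median of these 6 was 0.29, and 5 were above 0, with Tshb (1.17, not called) the highest. The one called lower was Fshb (-0.86). The defining genes Pou1f1 and Ghrhr had signals of 0.7 to 22 and 6.6 to 39.3. The 9 microglia and macrophage markers (1 called higher) summed to 1834 to 2646 and 1987 to 2532, with a median of 0.19. Of these 9, 7 were above 0, among them Aif1 (0.42), the one called. The lowest was Cd68 (-0.74, not called). The mean log2 signal of a list can rest on a few genes. Examples are Gfap among the pituicyte markers, Avp and Oxt among the neurosecretory ones, and Pcsk2 and Oacyl (-0.54) among the melanotroph ones. By the mean log2 signal the exact two-sided permutation p, adjusted over 8 measures, was 0.0212 for the neurosecretory, fibroblast and endothelial lists and 0.0254 for the pituicyte and melanotroph lists. It was 0.463 for the microglia list and 0.476 for the anterior lobe list. The melanotroph mean was lower in the dehydrated group (-0.15), and the neurosecretory, fibroblast, endothelial and pituicyte means were higher. No marker was at 0 on any array. Which of these cells hold Nnat or the other members, and their part in the differences above, was not tested.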

How the data were processed

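The deposited table holds 1 linear intensity per probe set and array; the authors' software was GCOS 1.2, per the submitters' processing notes, and its settings are not given in the sources used here. After trimming 2% at each end the mean intensity was 100 on every array, so no scaling was added, and changes are relative to the average probe set. Detection calls were not used here, so signal over background is unknown and the number of arrays limits precision.

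Of 31099 probe sets, 57 controls were left out. Values were taken as log2(signal + 5), which understates the change of dim genes, and the brightest 60% (18625) were kept. Groups were compared across all of them with limma 3.58.1 in R 4.3.3 (lmFit, eBayes with an intensity trend, two-sided, Benjamini-Hochberg, adjusted p under 0.05). A gene outside the members stands for its brightest kept probe set. The integrity ratio and mean marker levels (8 array measures) were compared by an exact permutation test over 252 choices of arrays (scipy 1.17.1). Steps were tested on simulated data.

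Symbols come from the platform annotation; by gene ID they matched RefSeq GRCr8 for all 9 measured members, and promoter sequences are RefSeq's. Members and lists were chosen with earlier results of these data known. Named genes were all member probe sets, up to 4 called genes of each pathway list or else the one with the smallest p, a fixed set of imprinted genes (Blcap, Igf2, Igf2r, Gnas, Snrpn, Peg10, Magel2, Rasgrf1, Impact, Dio3 and Phlda2, where kept), and the 5 genes most correlated with Nnat by each measure. Casd1 and other genes outside this rule were named after their values were seen. Alternatives changed these choices one by one: normalization, pseudocount (1 or 20), filter (none or 40%), trend, robust variance, integrity covariate, array weights, probe set averaging each array left out, and dehydrated 5 and control 1 left out together.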

Additional observations from a re-analysis of the deposited data

Results flagged for a closer look

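In 40 groups of 5 arrays checked for an array far from the rest, 4 held one, where chance gives about 1 in 20. Dlk1 on dehydrated 1 had a signal of 154.3, while the other dehydrated arrays read 109 to 115. Plagl1 on control 2 had a signal of 608.8, and the other controls read 996 to 1104. The mean log2 signal of the neurosecretory transcripts on dehydrated 5 was 8.29, below 8.56 to 8.58 on the others. That of the microglia and macrophage markers on dehydrated 2 was 7.39, below 7.72 to 7.85.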

How the results depend on the processing

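Of the 240 values of member log2 changes over the alternatives, none moved by as much as the spread between arrays. The number of members called was 1 throughout, except 2 with the integrity ratio as a covariate (Nnat and Cdkn1c); as the members were chosen with this comparison known, nothing is read from these counts. The count over all probe sets, 458 (312 higher, 146 lower, 68.1% higher), was 240 without an intensity trend, 730 with array weights, 1398 without dehydrated 5 and control 1 together, and 218 (without dehydrated 3) to 1163 (without dehydrated 5) with 1 array left out. Median centring gave 456 higher and 113 lower (80.1% higher). The count of other imprinted genes, 0, was 1 with array weights, 2 without dehydrated 5 and control 1 together, and 0 to 1 with 1 array left out. The count over the partner, methylation and placental lists, 4, was 1 without a trend, 7 without those 2 arrays, 2 with probe sets averaged, and 2 to 5 with 1 array left out. Tssc4 turned to -0.10 with its probe sets averaged. The cause of these shifts was not tested. No paired analysis was possible because the labels give no replicate numbers that pair arrays.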
